A study of Mus musculus with 10 samples.

Results

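Apoe, Trem2 and 8 other genes by which macrophages take up, bind, store, digest and export lipid were read from bulk RNA sequencing of cells taken from MC38 tumours. The 10 genes are Apoe, Trem2, Gpnmb, Lpl, Fabp5, Cd36, Lipa, Abca1, Abcg1 and Plin2. They were chosen by symbol, with no threshold on a measured value, and each matched exactly 1 of the 55487 gene rows of the deposited table. The samples were 5 mice with an S452A change of Ptpn22 (PepS452A), the gene of the phosphatase Pep, and 5 mice with the wild-type gene (WT). MC38, a colon carcinoma line of the mouse, was injected into all 10 mice when they were 8 weeks old, and the tumours were taken 18 days later. Tumours were digested with collagenase, CD8+ T cells were sorted, and libraries were made from 40 ng of RNA. The labels do not say which cells of the mice carry the change, or whether any cells were pooled. The series design text spells the change S425A, and the title and sample labels spell it S452A.

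Values are TPM, reads assigned to a gene per transcript length, scaled to a fixed total per library. Such values hold no record of read depth, which is therefore unknown, and no counting interval can be given. The libraries labelled CD8+ T cells did not carry the profile of that label. Of 15 macrophage markers, 15 averaged at least 1 TPM and 13 at least 100 TPM, and their summed level was 10851 to 13165 TPM in S452A libraries and 10502 to 14027 TPM in WT libraries. The 8 defining T cell markers (chains of CD3, of the T cell receptor and of CD8) summed to 15.0 to 135 TPM in S452A and 12.1 to 126 TPM in WT. The levels below are therefore levels in macrophage-rich libraries, and in bulk RNA fewer cells of a type and less RNA per cell cannot be told apart. Markers of other cells that can use these genes were present to different degrees. The 6 monocyte markers summed to 375 to 1435 TPM in S452A and 448 to 1076 TPM in WT, led by Ly6c2 and Plac8. Adipocyte markers, with Lpl and Cd36 kept out of that list, summed to at most 0.13 TPM in S452A and 1.17 TPM in WT, with Lep at 0 in all libraries, and 8 endothelial markers summed to 16.3 to 39.0 TPM in S452A and 17.6 to 28.1 TPM in WT. Fibroblast markers summed to 125 to 245 TPM in S452A and 180 to 369 TPM in WT. The mean log2(TPM + 1) of these fibroblast markers was 3.32 ± 0.28 in S452A and 3.73 ± 0.32 in WT (SD, n = 5 each).

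Macrophages that clear dying cells take in more lipid than they can burn. Trem2 is a surface receptor for lipids and lipoproteins that signals through the adaptor Tyrobp, and Cd36 is a scavenger receptor that imports fatty acids and oxidized lipoproteins. Fabp5 carries fatty acids in the cytosol, Lpl frees them from triglyceride, and Lipa is the acid lipase that breaks down cholesteryl esters and triglycerides in lysosomes. Plin2 coats lipid droplets, and Gpnmb is a membrane glycoprotein of lysosome-rich phagocytes. Abca1 and Abcg1 pump cholesterol out of the cell to lipoprotein acceptors, of which Apoe is one that macrophages secrete. Abca1, Abcg1 and Apoe are classical targets of the liver X receptors, which sense oxysterols.

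The 10 genes covered a wide range of levels, and none differed between genotypes after adjustment over all genes. Together they made up 1.08 to 1.56% of all TPM in S452A libraries and 1.03 to 1.40% in WT libraries. Apoe was the highest, at a mean of 10614 TPM over all 10 libraries, which ranked 3 among all gene rows. Plin2 followed at 1196 TPM, Trem2 at 307, Gpnmb at 183, Fabp5 at 182, Lipa at 53.6, Abca1 at 40.5, Abcg1 at 39.4, Cd36 at 33.4 and Lpl at 16.8 TPM. Apoe lay above Plin2, Plin2 above Trem2 and Fabp5 above Lipa in 10 of 10 libraries, without overlap of their ranges. Trem2 lay above Gpnmb in 9 libraries, Lipa above Abca1 in 9 and Cd36 above Lpl in 8. Gpnmb and Fabp5 changed places between libraries, with Gpnmb the higher in 5 of 10, as did Abca1 and Abcg1 with 5 of 10 and Abcg1 and Cd36 with 6 of 10, so the order within these pairs is not larger than the spread.

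**Figure D1:**
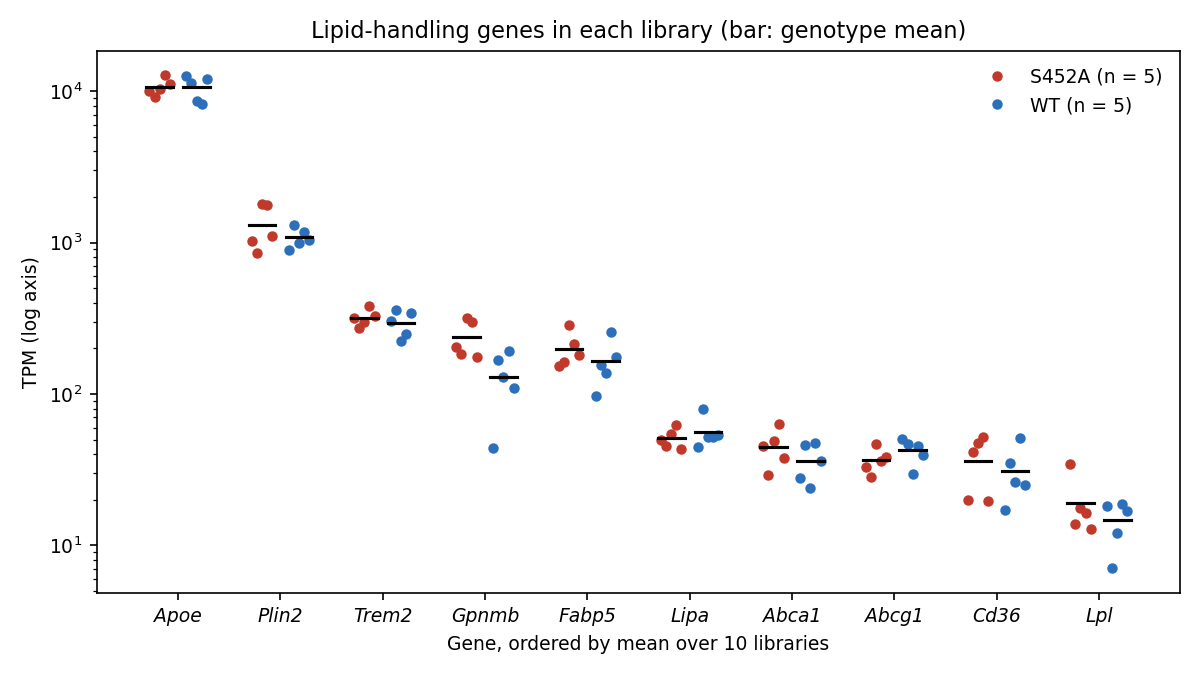
TPM of each gene on a log axis in each of 5 S452A libraries (red, left) and 5 WT libraries (blue, right), with a black bar at the genotype mean. Apoe has a mean of 10614 TPM and Lpl of 16.8 TPM, and for every gene the genotypes overlap.

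Apoe (ENSMUSG00000002985, minus strand of chromosome 7 in GRCm38) encodes apolipoprotein E, the carrier that takes up exported cholesterol. It stood at 9994, 9118, 10271, 12719 and 11104 TPM in S452A libraries 1 to 5, against 12537, 11382, 8659, 8289.9 and 12065 TPM in WT libraries 1 to 5. The highest library was S452A 4 and the lowest WT 4, and the genotypes overlapped almost wholly. Apoe averaged 10641 ± 1361 TPM in S452A and 10587 ± 1976 TPM in WT (SD, n = 5 each). The difference on the log2(TPM + 1) scale, S452A minus WT, was 0.02 (SE 0.15; limma adjusted p = 0.995), with a 95% interval of -0.30 to 0.34. Apoe had the smallest relative spread of the 10 genes, with a coefficient of variation of 15.1% over all libraries.

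Trem2 (ENSMUSG00000023992, plus strand of chromosome 17) stood at 316, 272, 297, 379 and 326 TPM in S452A libraries 1 to 5, against 305, 359.6, 224, 250.02 and 341 TPM in WT libraries 1 to 5. As for Apoe, S452A 4 was the highest library, and WT 3 and WT 4 were the lowest. Trem2 averaged 318 ± 39.9 TPM in S452A and 296 ± 57.8 TPM in WT (SD, n = 5 each), a log2 difference of 0.12 (95% interval -0.19 to 0.42, SE 0.14; adjusted p = 0.958 by limma). That difference was 0.024 without WT library 3 and 0.19 without WT library 2. Its adaptor gene Tyrobp was at 1032 ± 122 TPM in S452A and 1017 ± 76.9 TPM in WT (log2 difference 0.02), a level above that of Trem2 itself.

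Apoe and Trem2 went up and down together from library to library. Over the 10 libraries Pearson's r of their log2(TPM + 1) values was 0.865 (permutation p = 0.00089, 0.0400 after Benjamini-Hochberg adjustment over the 45 pairs of the 10 genes) and Spearman's rho was 0.830 (permutation p = 0.0042, adjusted 0.0945). With genotype means removed r was 0.885. Without the 2 libraries whose Apoe lay farthest from its median r was 0.733 (exact permutation p = 0.0394; adjusted 0.499). Leaving out single libraries gave 0.830 to 0.940, and the adjusted p stayed under 0.05 only without S452A library 1 or WT library 1, running from 0.0093 to 0.207. Among all 13930 tested genes Trem2 ranked 6 in likeness to Apoe and Apoe ranked 6 in likeness to Trem2, and 21 genes (0.151%) reached an r of 0.8 with Apoe. Both genes had a positive r with the mean of the 15 macrophage markers. That r was 0.700 for Apoe (permutation p = 0.0229) and 0.768 for Trem2 (permutation p = 0.0115), with rho at 0.697 and 0.745, and neither passed adjustment over the 50 relations with marker lists (adjusted p = 0.382 for both). Without the 2 libraries farthest from the median of the marker mean, r was 0.538 for Apoe and 0.602 for Trem2. Trem2 had negative r of similar size with the means of the T cell markers (-0.62, permutation p = 0.0566; rho = -0.61), the fibroblast markers (-0.61, permutation p = 0.0607; rho = -0.49) and the monocyte markers (-0.57, permutation p = 0.0892; rho = -0.67), with adjusted p of 0.607, 0.607 and 0.629. The part of cell content in the pairing of Apoe and Trem2 was not tested.

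The genes most like Apoe over the 10 libraries were Setd4 (r = 0.934), Pmepa1 (r = 0.890) and Cntln (r = 0.875), and those most like Trem2 were Aopep (r = 0.927), Klf2 (r = 0.904) and Setd4 (r = 0.888), out of 11420 named genes compared. Setd4 averaged 2.94 TPM and Cntln 2.91 TPM over all libraries, while Aopep was at 96.7 TPM and Klf2 at 49.3 TPM. Since Apoe and Trem2 moved together, the 250 bases before their starts are shown, from RefSeq on build GRCm38.p6, each read 5′ to 3′ on the gene's own strand. Capitals mark the hexamer AGGTCA, on either strand, that nuclear receptors such as the liver X and PPAR receptors bind in pairs. Apoe lies at chr7:19699189-19699438 and Trem2 at chr17:48346151-48346400.
Apoe: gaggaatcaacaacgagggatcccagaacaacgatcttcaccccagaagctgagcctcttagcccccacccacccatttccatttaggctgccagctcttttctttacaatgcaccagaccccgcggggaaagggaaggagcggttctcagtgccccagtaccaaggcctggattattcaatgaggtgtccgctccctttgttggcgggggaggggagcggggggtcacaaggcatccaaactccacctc
Trem2: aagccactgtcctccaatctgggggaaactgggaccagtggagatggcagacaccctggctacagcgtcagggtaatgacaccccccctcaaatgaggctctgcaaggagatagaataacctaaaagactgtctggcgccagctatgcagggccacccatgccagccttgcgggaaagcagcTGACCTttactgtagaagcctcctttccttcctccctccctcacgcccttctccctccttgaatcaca
The Trem2 window held the hexamer once, in reverse orientation, beginning 68 bases before the start. The Apoe window shown, that of the outermost of 3 annotated starts, held none. Of the 32526 distinct mouse promoters of this length, 14.0% hold at least 1 such hexamer.

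Gpnmb (ENSMUSG00000029816, plus strand of chromosome 6) showed the widest gap between genotypes of the 10 genes. It stood at 205, 183, 318, 301 and 177 TPM in S452A libraries 1 to 5, against 43.8, 167, 130.2, 193 and 109 TPM in WT libraries 1 to 5. The S452A libraries 1, 3 and 4 lay above every WT library, 4 of the 5 WT libraries lay below every S452A library, and only WT 4 fell among the S452A values. Gpnmb averaged 237 ± 67.6 TPM in S452A and 129 ± 57.6 TPM in WT (SD, n = 5 each), a ratio of means of 1.84. The log2 difference was 0.99 (SE 0.34, 95% interval 0.24 to 1.73). Unadjusted, limma gave p = 0.0134 and the 2-sided exact permutation test over the 10 libraries p = 0.0238. The limma p adjusted over all 13930 tested genes was 0.952, so Gpnmb did not pass. An unadjusted p under 0.05 was found for 660 tested genes, or 4.74%, and Gpnmb ranked 168 by p. Leaving out WT library 1, where Gpnmb was lowest, brought the difference to 0.64, and its sign held with any single library left out (0.64 to 1.17).

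The genes most like Gpnmb were Slc31a1, a copper importer, with r = 0.985, Gbp5, an interferon-induced GTPase, with r = 0.976, and Tnfrsf23, a decoy receptor, with r = 0.966. Gbp5 was at 49.2, 38.4, 70.7, 70.2 and 43.9 TPM in S452A libraries 1 to 5, against 18.5, 48.2, 39.2, 46.9 and 32.0 TPM in WT libraries 1 to 5. It was highest in the same S452A libraries 3 and 4 and lowest in the same WT library 1 as Gpnmb. That is no separate result, since Gbp5 was picked by its likeness to Gpnmb over these same libraries. Such likeness was common around Gpnmb, since 321 genes (2.30% of those tested) had an r of at least 0.8 with it, of which 1 was among the other 9 lipid-handling genes. No relation of Gpnmb was detected with the macrophage markers (r = -0.12, permutation p = 0.740; rho = -0.43, permutation p = 0.218) or the T cell markers (r = -0.05, permutation p = 0.904; rho = 0.07, permutation p = 0.863), and adjusted p over the 50 relations was above 0.38 for each. With either marker mean as a covariate its log2 difference remained 0.99.

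Fabp5 (ENSMUSG00000027533, chromosome 3) had the highest r with Gpnmb among the other 9 genes, and it has near-identical copies with which its reads can be confused. It stood at 152, 162, 285, 214 and 182 TPM in S452A libraries 1 to 5, against 96.6, 155, 138, 258 and 175 TPM in WT libraries 1 to 5. Library S452A 3 was the highest and WT 1 the lowest, as for Gpnmb. Fabp5 averaged 199 ± 53.4 TPM in S452A and 164 ± 59.8 TPM in WT (SD, n = 5 each), a log2 difference of 0.31 (95% interval -0.21 to 0.83, SE 0.24; adjusted p = 0.952 by limma). It was 0.14 without WT library 1, 0.17 without S452A library 3 and 0.49 without WT library 4. Its correlation with Gpnmb was r = 0.824 (permutation p = 0.00371, adjusted 0.0556) and rho = 0.685 (permutation p = 0.0350, adjusted 0.176). It rested in part on the extreme libraries, since r was 0.459 without the 2 libraries farthest from the Gpnmb median and 0.656 without WT library 1.

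A pair of processed pseudogenes together were listed at more TPM than Fabp5 itself, before their shorter annotated length was allowed for. Gm6166 on chromosome 9 is 98.3% identical to the 408-base Fabp5 coding sequence over 409 aligned positions, with 7 differences and an identical stretch of 179 bases. A stretch of 60 coding bases of Fabp5, positions 334 to 393 counted from the A of its start codon, is shown beside that of Gm6166 to show how few bases can tell their reads apart; capitals mark the 2 bases that differ.
Fabp5: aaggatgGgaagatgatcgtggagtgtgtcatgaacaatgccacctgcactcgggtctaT
Gm6166: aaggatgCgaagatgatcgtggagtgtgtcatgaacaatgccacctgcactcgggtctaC

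The other copy, Gm14328 on chromosome 18, is 97.3% identical, with 11 differences and an identical stretch of 124 bases. Gm6166 was at 348 ± 76.9 TPM in S452A and 272 ± 94.0 TPM in WT, and Gm14328 at 77.6 ± 25.4 TPM in S452A and 50.1 ± 17.6 TPM in WT (SD, n = 5 each). Fabp5 took 29.3 to 34.9% of the summed TPM of the 3 genes in each library, and both copies varied with it (r = 0.971 for Gm6166 and 0.882 for Gm14328, as a description of genes that can share reads). The sum was 469, 500.2, 852, 679 and 621 TPM in S452A libraries 1 to 5, against 277, 469, 425, 741 and 520.1 TPM in WT libraries 1 to 5. It averaged 624 ± 154 TPM in S452A and 487 ± 169 TPM in WT (log2 difference 0.40, SE 0.23, limma adjusted p = 0.952). The copies are annotated as shorter than the 987 bases of the Fabp5 transcript, so the same number of reads gives them a higher TPM. Weighted by annotated length and expressed per length of Fabp5, the 3 genes came to 375 ± 94.5 TPM in S452A and 298 ± 105 TPM in WT (SD, n = 5 each). That was 1.85 times the listed level of Fabp5, so by this weighting the copies together came to less than Fabp5 itself. Whether the copies are transcribed was not tested. For the other 9 genes no such copy was found (identity of 95% or more, over 0.8 or more of the shorter of the transcripts).

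**Figure D2:**
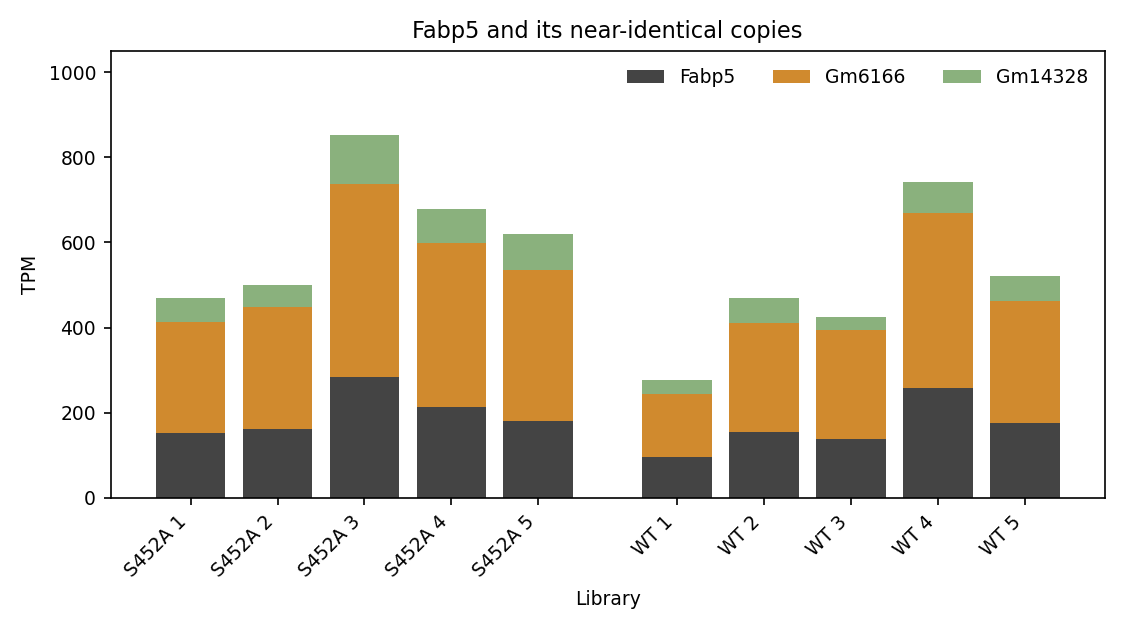
Stacked TPM of Fabp5 (dark), Gm6166 (orange) and Gm14328 (green) in the 5 S452A libraries (left) and 5 WT libraries (right), from 0 upwards. Fabp5 is about the same share of every bar (29.3 to 34.9%), and the bars of S452A 3 at 852 TPM and WT 4 at 741 TPM are the tallest.

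Cd36 (ENSMUSG00000002944, chromosome 5) varied 3.04-fold between its lowest and highest library. It stood at 19.9, 41.3, 47.7, 51.8 and 19.6 TPM in S452A libraries 1 to 5, against 17.03, 35.1, 26.2, 50.9 and 25.1 TPM in WT libraries 1 to 5. Low libraries (S452A 1 and 5, WT 1) and high ones (S452A 4, WT 4) occurred in both genotypes. The log2 difference was 0.19 (95% interval -0.52 to 0.91, SE 0.33; adjusted p = 0.964 by limma), and it was 0.01 without WT library 1 and 0.39 without WT library 4. Its highest r was with Fabp5, without passing adjustment (r = 0.759, permutation p = 0.00895, adjusted 0.101; rho = 0.673, permutation p = 0.0391, adjusted 0.176; r = 0.613 without the 2 libraries farthest from the Fabp5 median).

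Lpl (ENSMUSG00000015568, chromosome 8) was the lowest of the 10 genes, and none of its correlations with the others passed adjustment. It stood at 34.7, 13.8, 17.7, 16.4 and 12.9 TPM in S452A libraries 1 to 5, against 18.3, 7.06, 12.1, 18.7 and 16.8 TPM in WT libraries 1 to 5. Library S452A 1 was the highest, and WT 2 the lowest, with the other 8 between 12.1 and 18.7 TPM. The log2 difference was 0.35 (95% interval -0.30 to 0.99, SE 0.30; adjusted p = 0.952 by limma), and 0.12 without S452A library 1. Its r with the other 9 genes ran from -0.49 with Lipa to 0.17 with Abca1. These values rested on the extreme libraries. With Lipa r was 0.31 without the 2 libraries farthest from the Lpl median (rho over all 10 was -0.18, permutation p = 0.632; permutation p of r = 0.155, adjusted 0.465). Without the same 2 libraries r was 0.82 with Abcg1 (exact permutation p = 0.0175, unadjusted), against -0.11 over all 10, and 0.50 with Abca1.

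Lipa (ENSMUSG00000024781, chromosome 19), whose product frees cholesterol and fatty acids in the lysosome, stood at 49.6, 45.3, 54.1, 62.4 and 43.2 TPM in S452A libraries 1 to 5, against 44.5, 79.5, 51.9, 51.9 and 53.9 TPM in WT libraries 1 to 5. Library WT 2 was the highest and the other 9 lay within 43.2 and 62.4 TPM. The log2 difference was -0.13 (95% interval -0.47 to 0.21, SE 0.16; adjusted p = 0.958 by limma), and 0.00 without WT library 2.

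The cholesterol pumps pointed to opposite sides, neither of them past the test. Abca1 (ENSMUSG00000015243, chromosome 4) stood at 45.4, 29.2, 48.7, 62.9 and 38.0 TPM in S452A libraries 1 to 5, against 27.9, 46.0, 24.1, 47.1 and 36.3 TPM in WT libraries 1 to 5 (log2 difference 0.30, 95% interval -0.19 to 0.79, SE 0.23; adjusted p = 0.952 by limma). Abcg1 (ENSMUSG00000024030, chromosome 17) stood at 32.7, 28.2, 46.8, 35.9 and 38.2 TPM in S452A libraries 1 to 5, against 50.8, 46.6, 29.6, 45.6 and 39.4 TPM in WT libraries 1 to 5 (log2 difference -0.21, 95% interval -0.57 to 0.15, SE 0.17; adjusted p = 0.952 by limma). The genotypes overlapped for both. With single libraries left out Abca1 ran from 0.17 (without WT library 3; also 0.17 without S452A library 4) to 0.44 (without S452A library 2), and Abcg1 from -0.33 (without WT library 3) to -0.13 (without S452A library 2). Abca1 and Abcg1, both classical targets of the liver X receptors, had an r of 0.31 over the libraries, which was 0.54 with genotype means removed and 0.066 to 0.61 with single libraries left out. The r of Apoe was 0.27 with Abca1 (0.025 to 0.51 with single libraries left out) and 0.39 with Abcg1 (0.24 to 0.68), so single libraries set the size of each.

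Plin2 (ENSMUSG00000028494, chromosome 4), the coat protein of lipid droplets, was split among the S452A libraries. It stood at 1016, 859, 1787, 1783 and 1106 TPM in S452A libraries 1 to 5, against 894, 1306, 995, 1170.2 and 1039 TPM in WT libraries 1 to 5. S452A libraries 3 and 4 lay above all others, while S452A library 2 was the lowest of all 10. Plin2 averaged 1310.4 ± 442 TPM in S452A and 1081 ± 160.2 TPM in WT (SD, n = 5 each), a log2 difference of 0.22 (95% interval -0.22 to 0.67, SE 0.20; adjusted p = 0.952 by limma). Without S452A library 3 that difference was 0.096, without S452A library 4 it was 0.097, and without S452A library 2 it was 0.36.

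Plin2 and Abca1 followed each other (r = 0.811, permutation p = 0.00369, adjusted 0.0556; rho = 0.891, permutation p = 0.00087, adjusted 0.0391), with r = 0.784 without the 2 libraries farthest from the Abca1 median. Among the genes most like Plin2 were Tmem171 with r = 0.970 and Ube2q2 with r = 0.963, and 569 tested genes (4.09%) reached an r of 0.8 with it. Among all tested genes Plin2 ranked 256 in likeness to Abca1, and Abca1 ranked 526 in likeness to Plin2. Apoe and Trem2 were closer, each at rank 6 for the other. Because Abca1 and Plin2 moved together, the 250 bases before their starts are shown as for Apoe and Trem2. Capitals mark AGGTCA on either strand and the E-box CACGTG, a site of helix-loop-helix factors such as those of the TFEB family that control lysosome genes. Abca1 lies at chr4:53159896-53160145 and Plin2 at chr4:86670060-86670309.
Abca1: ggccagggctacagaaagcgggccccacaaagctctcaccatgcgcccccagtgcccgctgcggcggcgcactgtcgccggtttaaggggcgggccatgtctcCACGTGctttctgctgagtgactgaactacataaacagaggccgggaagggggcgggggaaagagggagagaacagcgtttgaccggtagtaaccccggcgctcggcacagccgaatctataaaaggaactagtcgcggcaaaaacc
Plin2: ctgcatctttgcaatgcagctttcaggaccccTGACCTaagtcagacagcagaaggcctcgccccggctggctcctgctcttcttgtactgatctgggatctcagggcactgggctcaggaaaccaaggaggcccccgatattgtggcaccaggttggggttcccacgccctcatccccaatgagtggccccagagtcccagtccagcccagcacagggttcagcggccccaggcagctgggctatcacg
Abca1 held the E-box, beginning 147 bases before the start, and no AGGTCA, and Plin2 held AGGTCA in reverse orientation, beginning 218 bases before the start. The E-box occurs in 6.04% of the 32526 promoters. RefSeq windows were matched for 7 of the 10 genes, with no entry for Fabp5, Lpl and Abcg1, and AGGTCA occurred for 3 of the 7 (Cd36, Plin2 and Trem2). No window of the 7 genes held an exact pair of AGGTCA repeats in the DR4 or DR1 spacing. Such exact pairs occur in only 0.0154% and 0.0338% of all promoters, so finding none in so few windows decides nothing. The windows also held no M-box TCACATG (3.53% of all promoters), no TGACTCA, the site of AP-1 factors (4.45%), and no GAGGAAGT, a core bound by the macrophage factor PU.1 (2.45%). Each motif was searched on both strands by its exact letters. Sites that differ in any letter were not searched, and whether liver X receptors bind these windows was not tested.

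The deviations by library bring these patterns together. In S452A libraries 3 and 4, Gpnmb, Fabp5, Cd36, Plin2 and Abca1 all lay above their means over the 10 libraries, by 0.29 to 0.97 on the log2 scale. In WT library 1 these 5 genes all lay below, by -0.37 to -1.87, while Apoe there was 0.26 above its mean. The pattern did not keep to genotype. The same 5 genes also all lay above their means in WT library 4, by 0.01 (Plin2) to 0.70 (Cd36). In WT library 3 they all lay below, by -0.22 (Plin2) to -0.68 (Abca1). Among the 10 pairs of these 5 genes r ran from 0.54 to 0.82, and r of each of them with Apoe from -0.28 to 0.27. With the same 5 genes r of Trem2 ran from -0.05 (Cd36) to 0.60 (Abca1), and r of Lipa from 0.21 (Fabp5) to 0.57 (Plin2). The 5 were thus not set apart from Trem2 and Lipa in every pair. In S452A library 4 Apoe, Trem2 and Lipa also lay above their means, by 0.28, 0.32 and 0.24. The 5 genes were put together after their values were seen, so no test was made on them as a group. Of the 45 pairs of the 10 genes, 1 passed adjustment by Pearson's r (Apoe with Trem2) and 1 by Spearman's rho (Abca1 with Plin2).

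**Figure D3:**
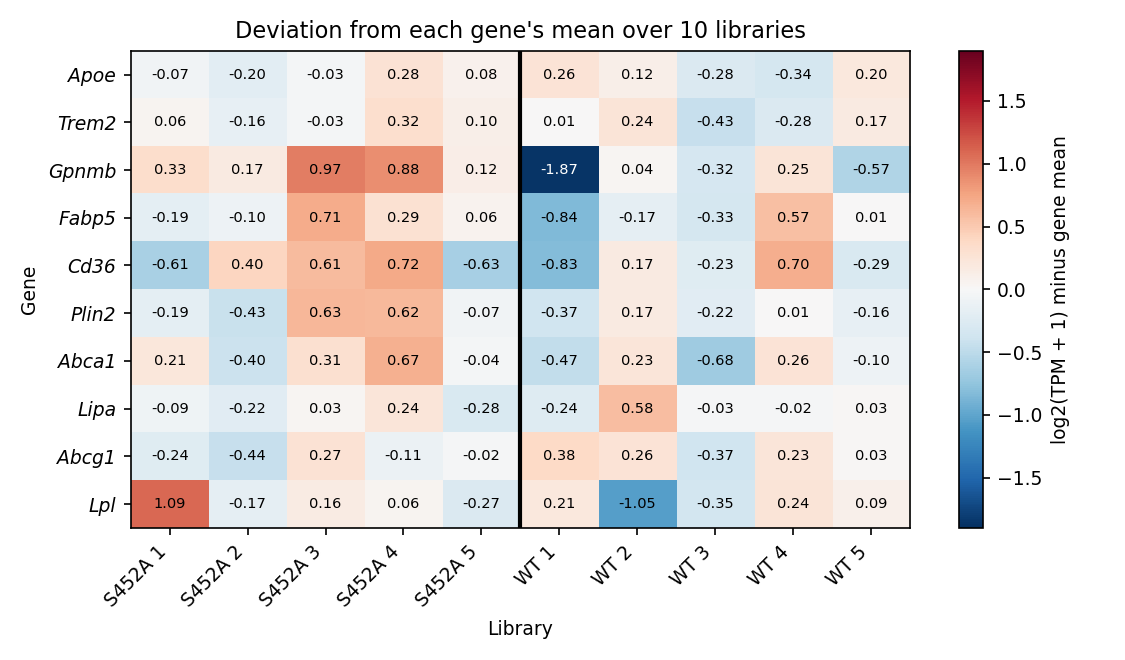
Deviation of log2(TPM + 1) from the gene's mean over 10 libraries, one row per gene and one column per library, S452A left of the black line and WT right of it. S452A 3 and 4 lie above 0 from Gpnmb to Abca1, as does WT 4 (0.01 to 0.70). WT 1 and WT 3 lie below 0 there, down to -1.87 for Gpnmb in WT 1. The rows of Apoe and Trem2 stay within -0.43 to 0.32.

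**Figure D4:**
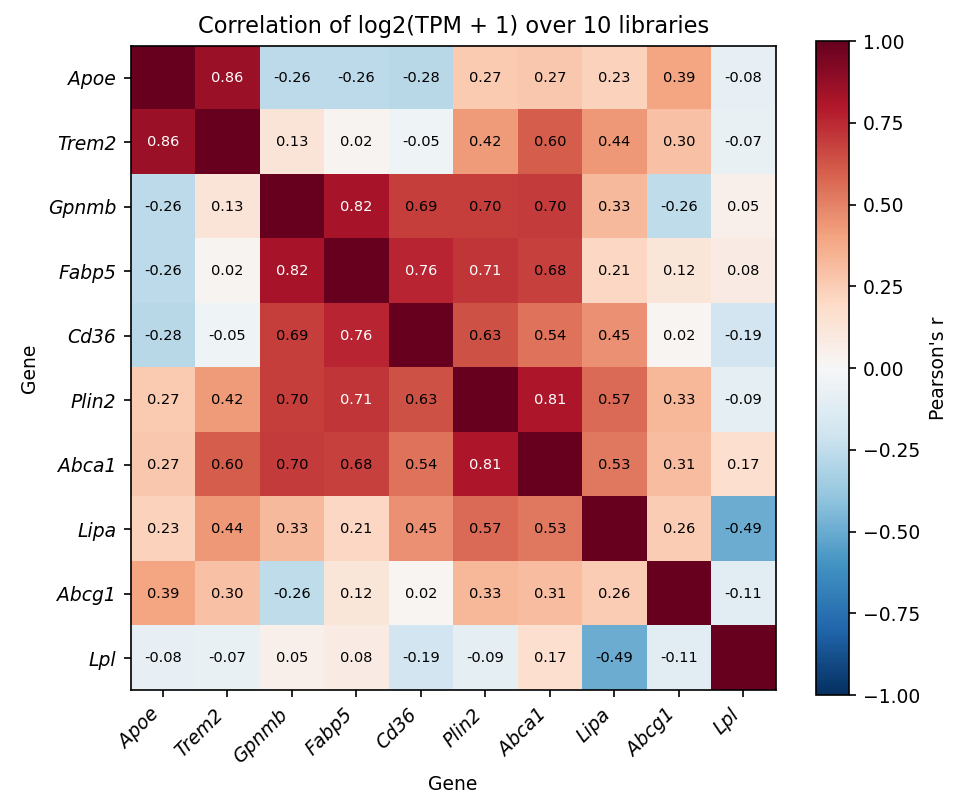
Pearson's r of log2(TPM + 1) over the 10 libraries for each pair of genes, from blue at -1 to red at 1. Apoe pairs with Trem2 (0.865), Gpnmb, Fabp5, Cd36, Plin2 and Abca1 form a red block, and the values of Lpl over all 10 libraries lie between -0.49 and 0.17. Outside the block, Trem2 with Abca1 (0.60) and Lipa with Plin2 (0.57) lie above its lowest value (0.54).

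Across genotypes as a whole, 0 of the 10 genes passed limma at an adjusted p under 0.05, against 1 of 13930 tested genes (0.00718%). That gene, Gm36079, is a predicted gene listed above 0 in S452A libraries and at 0 in all 5 WT libraries. At an unadjusted p under 0.05 there was 1 of the 10 genes, Gpnmb, against 4.74% of all tested genes. For 0 of the 10 the genotypes did not overlap, against 0.646% of all tested genes. The log2 difference was above 0 for 8 of the 10 genes, against 46.6% of all tested genes (47.3% by means of TPM), and its median was 0.21 over the 10 genes and -0.02 over all. The 95% interval reached a doubling in S452A for Gpnmb alone, and none reached a halving. The fibroblast markers, lower on average in S452A as given above, are set beside these differences. With their mean as a covariate, an alternative added after the data were seen, the difference was 0.96 for Gpnmb (SE 0.45), 0.44 for Lpl, 0.20 for Cd36, 0.13 for Fabp5, 0.01 for Plin2, 0.07 for Abca1, -0.07 for Trem2, -0.15 for Apoe, -0.22 for Lipa and -0.52 for Abcg1. Under that covariate the unadjusted limma p was 0.0069 for Abcg1 (SE 0.16) and 0.056 for Gpnmb. By limma the adjusted p came to 0.998 in every case, and the part of fibroblast content was not tested.

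**Figure D5:**
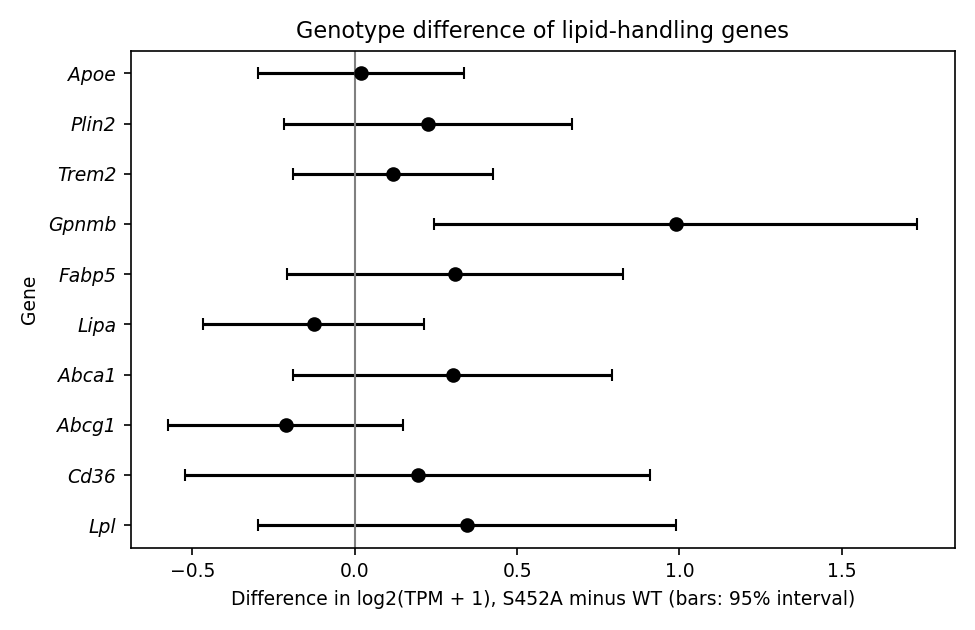
Difference in log2(TPM + 1), S452A minus WT, for each gene (points) with its 95% interval (bars), genes ordered by level from top to bottom. The interval of Gpnmb (0.24 to 1.73) lies to the right of 0 and those of the other 9 genes cross it.

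Genes around these 10 were read from 10 lists of lipid pathways. Over all 10 lists 0 tested genes passed in either direction. Among all tested genes 46.6% had a log2 difference above 0, the share to set beside the counts of each list. Of 18 tested genes of lipid droplets and triglyceride synthesis and breakdown, 13 had differences above 0 and 5 below, with a median log2 difference of 0.05. Hilpda, a droplet protein that inhibits lipolysis, was at 583 ± 156 TPM in S452A and 394 ± 119 TPM in WT (log2 difference 0.57, SE 0.21). Soat1, which esterifies cholesterol for storage, was at 85.1 ± 15.2 TPM in S452A and 65.2 ± 13.8 TPM in WT (0.39), and Lpin2, a phosphatidate phosphatase, at 55.8 ± 12.9 TPM in S452A and 38.7 ± 4.45 TPM in WT (0.49). Dgat1, which makes triglyceride, was at 47.4 ± 15.4 TPM in S452A and 46.2 ± 11.5 TPM in WT (0.00). The limma adjusted p was 0.952 for Hilpda, Soat1 and Lpin2, whose unadjusted p was under 0.05, as it was for 4.74% of all tested genes. For Lpin2 all S452A libraries lay above all WT libraries, and 0.646% of all tested genes had no overlap between genotypes.

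Among 26 tested companions of lipid-laden macrophages, such as lysosomal and iron-storage genes, 19 had differences above 0 and 7 below. They ran from -0.67 to 0.48 with a median of 0.16, and the genes named here are those of highest level, all of them above 0. Lgals3, the galectin of phagocytes, was at 4324 ± 639 TPM in S452A and 3356 ± 547 TPM in WT (log2 difference 0.37, SE 0.14, limma adjusted p = 0.952). Fth1 and Ftl1, the chains of the iron store ferritin, differed by 0.18 and 0.16, and Ccl4, a chemokine, by 0.30. Of 14 tested apolipoproteins and lipoprotein receptors 9 had differences above 0 (median 0.12), with the scavenger receptor gene Msr1 at 155 ± 23.0 TPM in S452A and 132 ± 15.3 TPM in WT (0.23), Lrp1, an Apoe receptor, at 0.29, its chaperone Lrpap1 at 0.09 and Apoc2, the cofactor of Lpl, at 0.16.

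Liver X receptor genes and their targets were near balance, with 8 of 14 tested genes above 0 and a median of 0.05. In that list Nr1h2, a liver X receptor, differed by 0.08, Arl4c, a target, by 0.17, Pltp, a phospholipid transfer protein, by -0.09 and Osbpl8, a lipid transfer protein, by 0.38. Of 16 tested Trem2 partners and other Trem receptors 9 had differences above 0 (median 0.01), with the kinase gene Syk at 0.31, the adaptor gene Lat2 at 0.03 and the shedding protease gene Adam17 at 0.23. Of 17 tested transcription factors 12 had differences above 0 (median 0.07), among them Cebpb at 0.13, Nfe2l2 at 0.02 and Bhlhe40 at 0.36.

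Lysosomal lipid genes were split 13 to 12 (median 0.00), with Psap, the precursor of the saposins, at 1049 ± 136 TPM in S452A and 983 ± 278 TPM in WT (0.12), Grn at -0.19, Npc2, the cholesterol egress protein, at 0.15 and Lamp1 at 0.06. Fatty acid oxidation was likewise split 10 to 9 (median 0.00), with Etfb at 0.00, Etfa at -0.06, Acadl at 0.04 and Hadha at 0.00. Of 13 tested genes of fatty acid uptake and binding 9 had differences above 0 (median 0.04), with Dbi at -0.27, Cav1 at 0.57, Slc27a1 at 0.16 and Acbd3 at 0.17. Within the list of other Lpl cofactors and regulators, which does not hold Apoc2, the highest was Lmf2 at 21.4 ± 5.06 TPM in S452A and 25.6 ± 6.28 TPM in WT (-0.25), with Sel1l at -0.01, Angptl4, an inhibitor of Lpl, at -0.35 and Angptl2 at 0.05, and 2 of 7 tested genes above 0 (median -0.23). The limma adjusted p was at least 0.952 for every gene of these lists.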

How the data were processed

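Bulk RNA sequencing was done on 10 libraries labelled CD8+ T cells of MC38 tumours, 5 S452A and 5 WT. Values are TPM as deposited by the authors in a single table, without depth. The submitters' processing notes name STAR 2.7.9a, RSEM 1.3.0 and build GRCm38.p6, and no further settings are known here. Columns were matched to samples by description, and 0 columns of samples were left unused. The titles number the mice in each genotype.

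A gene was tested if 5 or more libraries reached 1 TPM, which left 13930 genes. Values were analysed as log2(TPM + 1), which understates changes of low genes, with limma 3.58.1 in R 4.3.3 (trend, 2-sided, genotype as the only term, Benjamini-Hochberg over all tested genes, threshold 0.05). Single genes were also compared by exact permutation of the 10 libraries, and correlations by permutation with 100000 resamples, adjusted over 45 pairs or 50 relations with marker lists. Copies were searched with blastn 2.17.0 among GENCODE M21 transcripts, and promoters came from RefSeq (GRCm38.p6). The limma script was tested on simulated data. Python 3.11.15 was used for the rest.

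The genes and lists were chosen with earlier results of these data known. Named are the 10 genes, from each pathway list the 4 tested genes of highest mean TPM, the 3 named genes most like Apoe, Trem2, Gpnmb and Plin2, and genes past the threshold; some genes that this rule names are not reported here. Gm6166 and Gm14328 are named as copies of Fabp5. Alternatives were other pseudocounts, filters and scalings, leaving out libraries, a replicate block, marker means as covariates, robust moderation and summed copies.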

Additional observations from a re-analysis of the deposited data

Results flagged for a closer look

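Of 63 genes named, each checked in both genotypes, 1 group had a library far from the other 4 by Dixon's test, where chance flags about 1 in 20 groups. Cav1, a caveolin, was at 35.1 TPM in S452A library 5, against 84.3 to 117 TPM in the other 4 S452A libraries.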

How the results depend on the processing

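Of 230 values of the 10 genotype differences under alternatives, 223 kept their direction and did not pass. Apoe ran from -0.064 to 0.086 with single libraries left out, turning to -0.047 without S452A library 4, -0.048 without WT library 3 and -0.064 without WT library 4. With the fibroblast covariate Apoe turned to -0.15 and Trem2 to -0.074. Lipa ran from -0.20 to 0.0031 with single libraries left out, the highest without WT library 2. Gpnmb, at 0.99, passed 0.05 by the exact permutation test, which is not adjusted over genes; its limma adjusted p was at least 0.730 under the alternatives. The count of genes past the threshold was 0 with a filter of 5 TPM (460 at an unadjusted limma p under 0.05) and 1 with each single library left out. The number of correlated pairs was 1 over all libraries, 0 to 4 with single libraries left out (0 in 8 of 10 cases), 0 without the 2 farthest libraries and 2 with Fabp5 summed with its copies, an alternative added after the data were seen. For Apoe with Trem2 the adjusted p exceeded 0.05 in 10 of 16 alternatives, at r of 0.830 to 0.940 with single libraries left out, 0.733 without the 2 farthest libraries and rho of 0.830; the cause was not tested. Lpl with Lipa turned to 0.306 without the 2 farthest libraries and ran from -0.619 to 0.108 with single libraries left out. Mouse numbers did not pair the libraries (r of same-numbered deviations -0.15 to 0.074), and with the number as a replicate block 1 gene passed, as without it, and Gpnmb was at 0.99 (limma adjusted p = 0.985). TPM keeps no depth, so counting error could not be set against these values.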
